A study of Mus musculus with 18 samples.

Results

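Vhl-edited oligodendrocyte progenitor cells given the MEK inhibitor AZD8330 were compared with control cells given only the vehicle, DMSO, to see which effects of the Vhl edit were restored, overshot or left changed. The comparison takes 6 of the 18 libraries of the series: 3 of CRISPR-Vhl cells in 300 nM AZD8330 for 14 hours and 3 of CRISPR-Control cells in DMSO for the same time, chosen by their labels. All groups are mouse oligodendrocyte progenitor cells (OPCs) derived from epiblast stem cells and kept with Fgf2 and Pdgfa, growth factors that signal through MEK, so no group is free of that stimulus. CRISPR-Vhl cells in DMSO and CRISPR-Control cells in AZD8330, 3 libraries each, show how far each treatment moved a gene alone. The other 6 libraries are untreated Vhl and control cells, 3 of each. The labels name neither the site of the Vhl edit nor whether the cells are clones, and replicate libraries are not described as independent cultures. The p-values therefore rest on the spread between libraries, which may be technical. Because both the edit and the drug differ between the groups compared, a difference between them cannot be given to one or the other without the other groups.

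OPCs are the dividing precursors of the cells that wrap axons in myelin in the brain and spinal cord. The VHL protein is the part of a ubiquitin ligase that recognises the hydroxylated alpha subunits of hypoxia-inducible factor (HIF), so cells without it keep HIF in normal oxygen and transcribe genes for glycolysis, angiogenesis and mitophagy. MEK1 and MEK2 are the kinases that activate ERK, through which growth factors keep OPCs dividing, and cells read out ERK activity by transcribing its own inhibitors, such as the phosphatase Dusp6 and the Sprouty proteins. In this lineage Sox10 is the transcription factor on which differentiation and myelin genes depend.

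Libraries of the drug experiment held 12391077 to 16349676 estimated counts. Expression is given in CPM, counts scaled to a common library total with TMM, and changes as log2 with their standard error (SE). Vhl mRNA does not by itself check the edit, since a disrupted gene can still be transcribed. It was 109, 107 and 102 CPM in DMSO control cells and 103, 104 and 91.8 CPM in MEK-inhibited Vhl cells, and the groups overlapped (log2 −0.08 ± 0.05, adjusted p = 0.16, edgeR). In DMSO alone the Vhl cells had less of it, 89.8, 92.9 and 93.8 CPM (log2 −0.20 ± 0.05, adjusted p = 0.00781, edgeR). The 8 OPC markers were detected in all libraries, and their summed level was 8016 to 8188 CPM in DMSO control cells and 9203 to 9348 CPM in MEK-inhibited Vhl cells. The sum of 5 defining microglia markers was at most 1.28 CPM in each of the 12 libraries, and the endothelial marker Cldn5 and the pluripotency markers Pou5f1 and Zfp42 were at 0 in all 12. With Nanog and Esrrb, the 4 pluripotency markers summed to 17.6 to 22.4 CPM in DMSO control cells and 3.93 to 5.17 CPM in MEK-inhibited Vhl cells. MEK-inhibited control cells had 5.09 to 6.72 CPM of these 4. A longer list of 8 pluripotency genes went the other way. Its sum was 22.9 to 26.4 CPM in DMSO control cells and 38.9 to 44.8 CPM in MEK-inhibited Vhl cells. The 4 endothelial markers, none high enough to be tested, summed to 2.71 to 3.55 CPM in DMSO control cells. They summed to 0.291 to 0.552 CPM in MEK-inhibited Vhl cells and 0.13 to 0.932 CPM in MEK-inhibited control cells. A longer list of 8 endothelial genes summed to 7.42 to 9.27 CPM in DMSO control cells and 12.8 to 14.8 CPM in MEK-inhibited Vhl cells. In bulk RNA, fewer cells of a type and less RNA per cell cannot be told apart.

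Against DMSO control cells, MEK-inhibited Vhl cells had most hypoxia-response genes at or above the level of DMSO Vhl cells, much lower cell cycle and ERK feedback transcripts, and higher levels of glial genes such as Gpr17, Gfap and Apoe. Of 13457 genes tested, 4268 rose and 4164 fell (adjusted p under 0.05 in edgeR's quasi-likelihood test), so 62.7% were called, 31.7% up and 30.9% down. Counts given below for gene lists in this comparison are to be read against these shares. A change of at least 2-fold was reached by 1711 of the rises (12.7% of genes tested) and 1253 of the falls (9.31%). The edit alone called 1852 rises and 2489 falls, 13.8% and 18.5% of genes tested. Of the 4268 genes that rose, 1604 had also risen with the edit alone in DMSO, 249 had fallen with it and 2415 were not called there. Of the 4164 that fell, 1941 had also fallen with the edit, 72 had risen and 2151 were not called. The edit and the main comparison share the DMSO control libraries, so these overlaps are counts and no test.

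The largest rises among genes of at least 5 CPM were led by Loxl2, a lysyl oxidase that crosslinks collagen and a known hypoxia-responsive gene. It had no counts in the 3 DMSO control libraries and 74.2, 62 and 71.3 CPM in MEK-inhibited Vhl cells, at least 1030.0-fold higher when set against 3 counts over the control group. Of its 31-base words, 46.2% also occur in another gene. Mgarp, a mitochondrial protein gene, also had 0 control counts and reached 3.65, 5.49 and 6.7 CPM, at least 78.4-fold higher. The transcription factor gene Dlx3 had 3 control counts and 17, 19.8 and 18.4 CPM in MEK-inhibited Vhl cells, a ratio of 275.0 with a 95% counting interval of 93.7 to 1330.0. All 3 were already present with the edit alone, at 35.3 CPM, 3.72 CPM and 16.8 CPM in DMSO Vhl cells.

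The nuclear receptor gene Rxrg, known for a part in remyelination, rose mainly where the drug was given. It had 1 count in the DMSO control group, 0.243 CPM in DMSO Vhl cells, 1.37 CPM in MEK-inhibited control cells and 5.17, 5.62 and 4.8 CPM in MEK-inhibited Vhl cells. That ratio to DMSO control cells was 233.0 (95% counting interval 41.4 to 9250.0). Galnt14, a mucin glycosyltransferase gene, had 2 control counts and was 4.55, 6.8 and 8.59 CPM in MEK-inhibited Vhl cells, a ratio of 148.0 (95% counting interval 40.6 to 1230.0). It was uneven in MEK-inhibited control cells, 8.62, 1.24 and 5.59 CPM. The other leading rises were Jakmip3 (log2 7.42 ± 0.33, adjusted p = 5.7e-10, edgeR), the prolyl hydroxylase gene P4ha2 that modifies collagen (log2 6.89 ± 0.49, adjusted p = 5.49e-08, edgeR) and the hexokinase gene Hk1 (log2 6.80 ± 0.74, adjusted p = 3.55e-06, edgeR). Each had already been raised by the edit (log2 6.82, 5.88 and 5.93). The drug alone also raised P4ha2 (log2 1.97 ± 0.65, adjusted p = 0.019, edgeR) and Hk1 (log2 4.96 ± 0.79, adjusted p = 0.000124, edgeR) in control cells. Hk1 was uneven there, 4.06, 14.1 and 22.5 CPM.

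Among the 8 largest falls, 5 were genes of DNA replication and division: the E2F repressor E2f8, the spindle checkpoint kinase Ttk, the replication licensing factor Cdc6, the checkpoint adaptor Clspn and the thymidine kinase Tk1. Tk1 was 148, 162 and 148 CPM in DMSO control cells and 6.62, 5.89 and 5.53 CPM in MEK-inhibited Vhl cells, with no overlap (log2 −4.66 ± 0.11, adjusted p = 1.45e-12, edgeR). Tmem173, which encodes the DNA sensor adaptor STING, went from 48.1, 42.8 and 50.2 CPM to 1.03, 1.31 and 1.16 CPM (log2 −5.32 ± 0.13, adjusted p = 2.16e-12, edgeR). MEK-inhibited control cells overlapped with them at 1.08, 1.5 and 1.22 CPM, whereas DMSO Vhl cells held 32.2 CPM. The others were Vwa5b1 (log2 −5.52) and Rptoros (log2 −5.08), annotated as an antisense RNA and uncertain here because the strand of the counting is not given in the sources used.

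Genes that the edit had changed at least 2-fold in DMSO were then sorted by where they stood after the drug. A gene was called returned when the drug moved it back, it was no longer called against DMSO control cells and the 95% interval of the remaining difference lay within a fold of 1.5. It was overshot when called on the opposite side of control, partly returned when still changed but moved back by a called amount, left changed when the drug made no called difference, and moved further when the drug carried it on in the direction of the edit. There were 590 such genes, 486 raised (3.61% of genes tested) and 104 lowered (0.773%). Of these 590, 4 returned (0.678%), 19 overshot (3.22%), 26 partly returned (4.41%), 251 were left changed (42.5%), 228 moved further (38.6%) and 62 could not be assigned (10.5%). None of the 486 genes raised by the edit returned and 1 overshot, the sialyltransferase gene St6galnac5, while 4 of the 104 lowered genes returned and 18 overshot (17.3%). This contrast between raised and lowered genes was not tested.

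**Figure D1:**
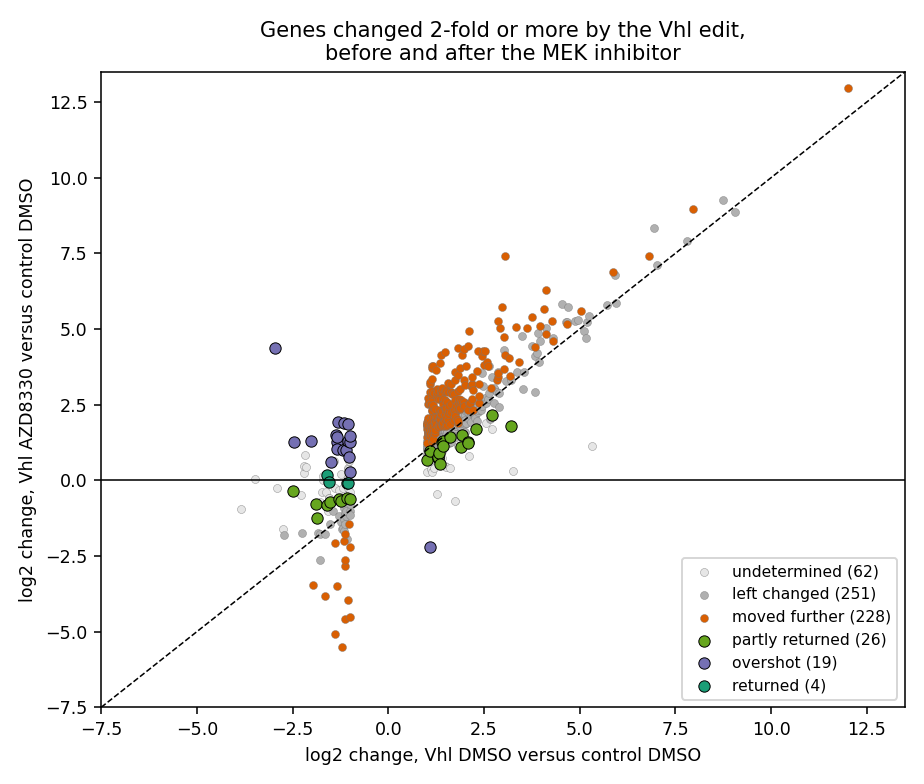
Each point is 1 of 590 genes changed at least 2-fold by the Vhl edit. The horizontal axis is the log2 change of DMSO Vhl cells and the vertical axis that of MEK-inhibited Vhl cells, both against DMSO control cells, which the axes therefore share. Points on the dashed line kept their change, points at the solid line are back at the control level, and colours give the classes with their numbers. Among the 486 genes raised by the edit 213 moved further, and the 18 overshot genes lowered by the edit lie above 0.

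Among the 486 raised genes, 227 were left changed and 213 moved further. The median rise of the 486 was log2 1.51 before the drug and 2.02 after it, and 365 were also higher than in MEK-inhibited control cells (16% of all genes tested were). In control cells the drug raised 259 of the 486 and lowered 59 (29.1% and 31.7% of all genes tested). Its median effect on the 486 was log2 0.77 there and 0.38 in Vhl cells. Of the 213 that moved further, the drug raised 174 and lowered 12 in control cells. The drug effect in Vhl cells minus that in control cells was called negative for 51 of the 213 and positive for 21. Among the 104 lowered genes the median change went from log2 −1.29 to −0.62. In that set 9 genes partly returned, 24 were left changed, 15 moved further and 34 could not be assigned. Taking all 4341 genes called for the edit whatever their size, 255 returned (5.87%), 321 overshot (7.39%), 97 partly returned (2.23%), 1063 were left changed (24.5%) and 2385 moved further (54.9%). The comparisons behind the classes share the DMSO control and DMSO Vhl libraries, so the counts describe these libraries. A gene picked for a large change can also come back towards control by chance.

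The smallest classes depended on single libraries. The 18 overshot genes became 11 without library C of the DMSO control cells and 11 without library A of the MEK-inhibited Vhl cells. The 4 returned genes became 2 without library B of the DMSO control cells. The 9 partly returned falls became 5 without library B of the DMSO Vhl cells and 4 without library A or B of the MEK-inhibited Vhl cells. The 17 partly returned rises became 9 without library A of the DMSO Vhl cells, where the 28 rises that could not be assigned became 15. Across the runs that left out 1 library, no raised gene returned and 1 overshot.

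**Figure D2:**
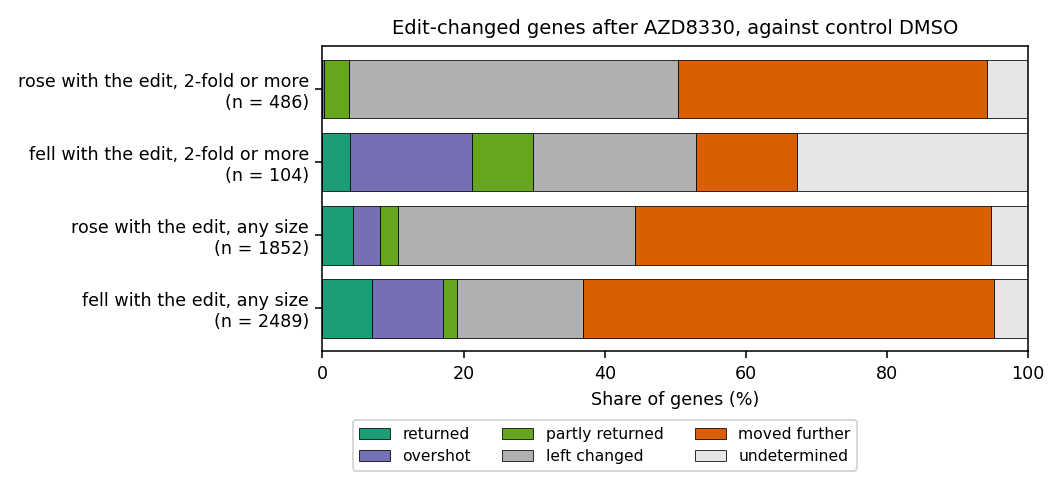
Each bar gives the share of genes, in percent, that returned, overshot, partly returned, were left changed, moved further or could not be assigned after AZD8330, measured against DMSO control cells. Bars separate genes raised and lowered by the edit, for changes of at least 2-fold and for all called genes, with the number of genes beside each bar. Overshot genes make up 0.206% of the 486 raised and 17.3% of the 104 lowered genes of at least 2-fold.

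Hypoxia genes that the edit had raised were not restored. The hypoxia list beyond glycolysis held 26 tested genes, of which 25 rose and 1 fell in MEK-inhibited Vhl cells, with a median of log2 2.31 against 0.04 over all genes. The edit alone had raised 23 of them, with a median of log2 1.84. Of those 23 none returned or overshot, 14 moved further, 8 were left changed and 1, the hydroxylase gene Jmjd6, partly returned. Igfbp3, the 1 that fell, encodes an IGF-binding protein and went from 16.7 CPM to 5.29 CPM (log2 −1.66 ± 0.21, adjusted p = 1.55e-05, edgeR); with the edit alone it was log2 −0.09, adjusted p = 0.793. The list was assembled with earlier results of these data known, so its direction is no independent evidence.

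Bnip3, a receptor on mitochondria that marks them for removal by autophagy, was 18.4, 19.3 and 21.6 CPM in DMSO control cells and 963, 965 and 906 CPM in MEK-inhibited Vhl cells. The groups lay far apart (log2 5.58 ± 0.06, adjusted p = 5.54e-15, edgeR). The drug had added to the 619, 651 and 679 CPM of DMSO Vhl cells (log2 0.54 ± 0.04, adjusted p = 2.95e-07, edgeR). Of the 31-base words of Bnip3, 20.3% also occur in another gene. Vegfa, the ligand that drives blood vessel growth, rose from 7.62, 7.76 and 5.92 CPM to 132, 139 and 184 CPM (log2 4.41 ± 0.15, adjusted p = 4.59e-11, edgeR). Library C of the MEK-inhibited Vhl cells was the highest for Vegfa, and the DMSO Vhl cells were lower at 112, 100.1 and 95.4 CPM (log2 0.57 ± 0.12, adjusted p = 0.00125, edgeR).

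The prolyl hydroxylase Egln1, which itself marks HIF for VHL, was left where the edit had put it: 144, 134 and 136 CPM in DMSO control cells, 726, 760.0 and 763 CPM in DMSO Vhl cells and 741, 769 and 744 CPM in MEK-inhibited Vhl cells. Its drug effect in Vhl cells was log2 0.00 (95% interval −0.07 to 0.07), while control cells given the drug fell to 81.7 CPM. Fam162a, a HIF-responsive gene for a mitochondrial protein, had 54.3 ± 1.42 CPM, 403 ± 9.93 CPM and 399 ± 25.8 CPM (SD, n = 3) in the same order of groups. Mif, a cytokine gene, was 244, 238 and 242 CPM in DMSO control cells and 1125, 1126 and 1142 CPM in MEK-inhibited Vhl cells (log2 2.23 ± 0.03, adjusted p = 2.75e-14, edgeR). Of its 31-base words, 39.1% occur in other genes. Egln3, a HIF-inducible hydroxylase, moved further, from 121 CPM in DMSO Vhl cells to 171 CPM, against 32.7 CPM in DMSO control cells (log2 2.38 ± 0.05, adjusted p = 1.36e-12, edgeR).

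Of 9 tested HIF pathway components, 3 rose and 1 fell, where 31.7% and 30.9% of all genes tested did. Besides Egln1 and Egln3 the risen gene was Hif3a, which encodes an alpha subunit often described as an inhibitor of the others. Hif3a had fallen with the edit and overshot, from 4.82, 4.35 and 4 CPM in DMSO control cells to 8.62, 10.6 and 12.6 CPM (log2 1.27 ± 0.20, adjusted p = 0.00011, edgeR). Hif1a, the alpha subunit itself, was 342, 339 and 309 CPM and 303, 298 and 299 CPM in the same groups, with no overlap (log2 −0.14 ± 0.04, adjusted p = 0.0102, edgeR), after log2 −0.34 with the edit alone. Without TMM scaling that fall was log2 −0.08 and did not pass (adjusted p = 0.0689, edgeR). Epas1, which encodes HIF2 alpha, was at 0 in all 12 libraries.

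Glycolysis genes rose as well: 15 of 16 tested rose and none fell, with a median of log2 1.57, where the edit alone had raised 13 with a median of 1.47. The phosphofructokinase gene Pfkl was 105, 102 and 107 CPM in DMSO control cells and 1183, 1173 and 1085 CPM in MEK-inhibited Vhl cells (log2 3.46 ± 0.05, adjusted p = 3.29e-14, edgeR). Triose phosphate isomerase, Tpi1, was 376 ± 6.89 CPM and 1995 ± 104 CPM (SD, n = 3; log2 2.41 ± 0.04, adjusted p = 3.55e-14, edgeR). Gapdh reached log2 1.79 ± 0.03 and Pgam1 log2 1.90 ± 0.03 (SE), with 27.2% and 37.1% of their 31-base words shared with other genes. Of the 13 that the edit had raised, 7 were left changed, 5 moved further and 1, the glucose phosphate isomerase gene Gpi1, partly returned, from 2165 CPM to 1987 CPM against 811 CPM in DMSO control cells.

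Fuel transport genes divided by member. Slc2a1, the glucose transporter GLUT1, was 58.6, 56.9 and 59.5 CPM in DMSO control cells and 301, 299 and 283 CPM in MEK-inhibited Vhl cells, with no overlap (log2 2.33 ± 0.04, adjusted p = 4.17e-14, edgeR). Slc16a3, the lactate exporter MCT4, was 0.698, 0.936 and 1.64 CPM and 16.3, 18.9 and 14.3 CPM (log2 3.92 ± 0.36, adjusted p = 7.08e-07, edgeR). Slc16a1, the monocarboxylate transporter MCT1, was the 1 of 7 that fell, from 129.5, 123 and 118 CPM to 82, 80.6 and 81.7 CPM (log2 −0.60 ± 0.06, adjusted p = 1.06e-06, edgeR). Pdk3, a kinase that slows the entry of pyruvate into the citric acid cycle, moved further, from 67.9 CPM in DMSO Vhl cells to 109.8 CPM, against 26.7 CPM in DMSO control cells (log2 2.04 ± 0.06, adjusted p = 1.44e-11, edgeR).

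In GRCm38 (mm10) the genes whose levels are plotted by library include Bnip3 at chr7:138890836-138909519, Slc2a1 at chr4:119108711-119137983, Plxnb3 at chrX:73757090-73772514, Aldh1a1 at chr19:20492715-20643465, Gjc3 at chr5:137953461-137963098, Apoe at chr7:19696109-19699188 and Sox10 at chr15:79154908-79165240, all protein-coding. Each value is an estimated count for the gene as a whole.

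**Figure D3:**
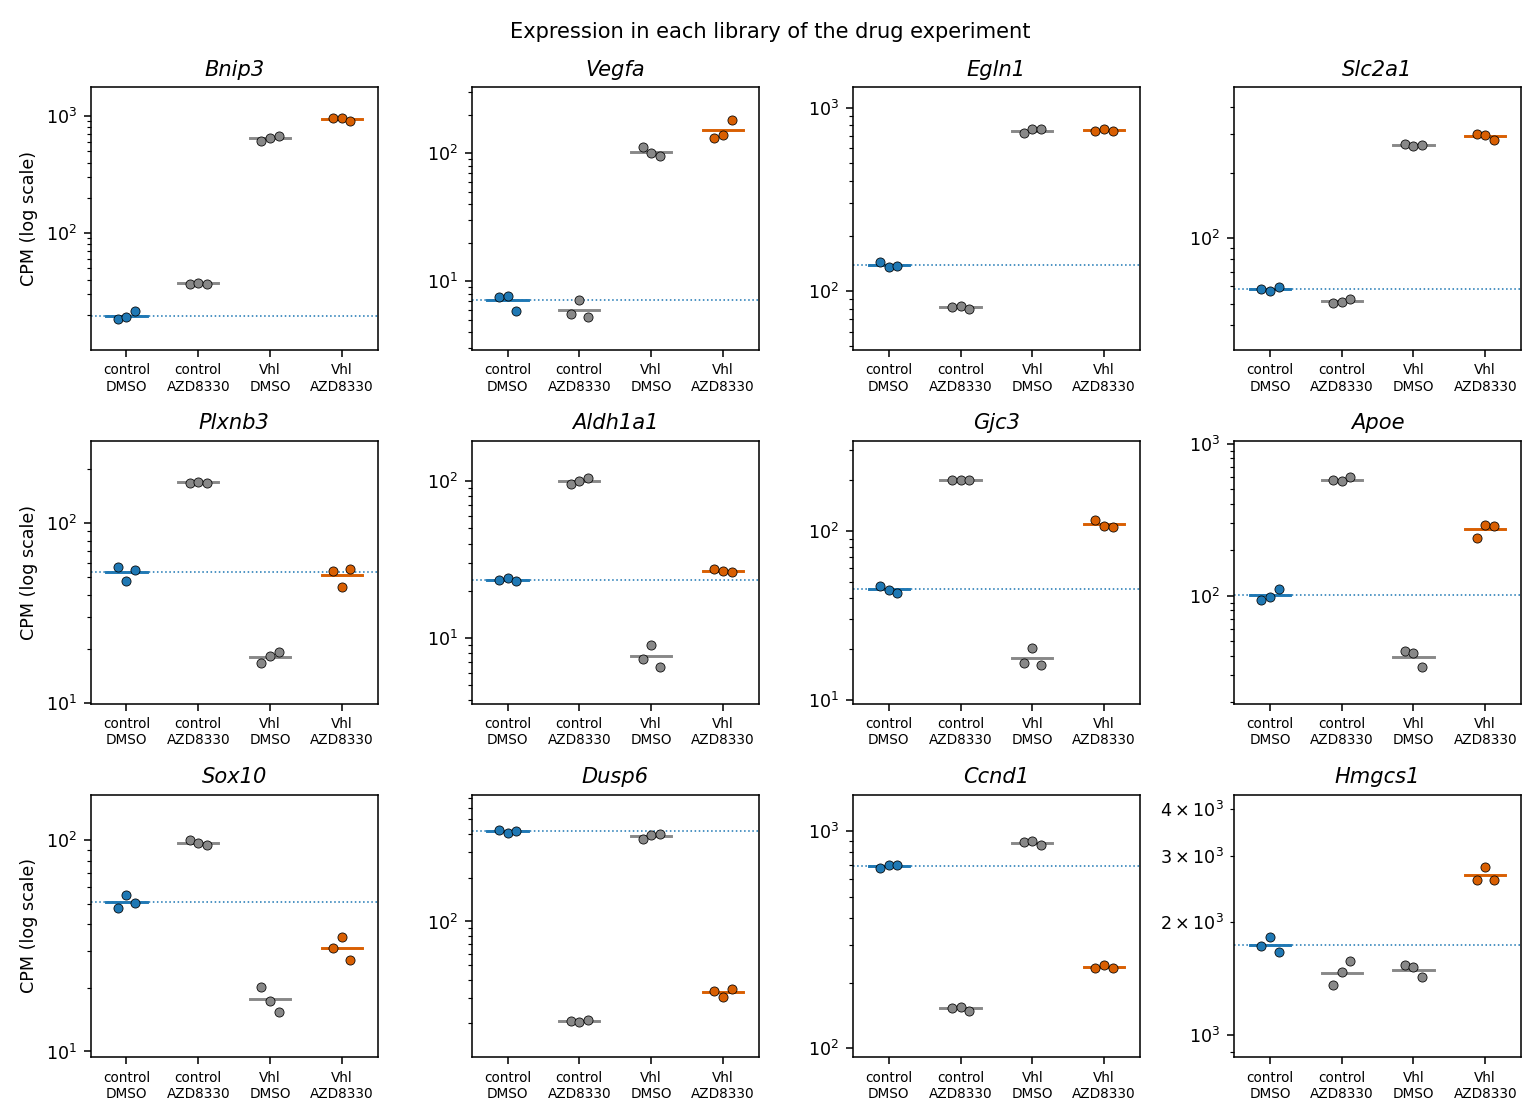
CPM on a log axis for 12 genes in each of the 12 libraries of the drug experiment, with 1 point per library, a bar at each group's mean of 3 libraries and a dotted line at the mean of DMSO control cells. Bnip3, Vegfa, Egln1 and Slc2a1 stay far above the dotted line in MEK-inhibited Vhl cells, Plxnb3 and Aldh1a1 lie near it, Gjc3 and Apoe lie above it after starting below it, Sox10 remains below it, Dusp6 and Ccnd1 fall far below it, and Hmgcs1 rises above it.

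The sequences before the start sites of 2 raised and 2 overshot genes, chosen after their values were seen, are shown because HIF binds a short core motif. In the RefSeq promoter table (GRCm38.p6), 250 bases before the start of the Bnip3 gene (chr7:138909507-138909756, minus strand) and of Slc2a1 (chr4:119108495-119108744, plus strand) contain the motif. Those of Gjc3 (chr5:137963099-137963348, minus strand) and Apoe (chr7:19699189-19699438, minus strand), which overshot, do not. Other named genes did not keep to this split. Among raised genes, Vegfa, Mif, Tpi1 and Hk1 had no match, whereas Pfkl, Egln1 and Fam162a had. Among overshot genes, Cyp3a13, Afap1l2 and Crb2 had no match, whereas Hif3a, overshot among genes of any size, had. Capitals mark ACGTG and GCGTG on either strand, read 5′ to 3′ on the strand of the gene; CACGTG, the E-box of other factors, holds ACGTG on both strands.
Bnip3: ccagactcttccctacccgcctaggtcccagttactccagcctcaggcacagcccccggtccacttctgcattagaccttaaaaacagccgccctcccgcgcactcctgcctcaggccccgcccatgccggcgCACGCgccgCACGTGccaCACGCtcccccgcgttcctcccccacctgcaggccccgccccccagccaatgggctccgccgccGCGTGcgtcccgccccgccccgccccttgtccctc
Slc2a1: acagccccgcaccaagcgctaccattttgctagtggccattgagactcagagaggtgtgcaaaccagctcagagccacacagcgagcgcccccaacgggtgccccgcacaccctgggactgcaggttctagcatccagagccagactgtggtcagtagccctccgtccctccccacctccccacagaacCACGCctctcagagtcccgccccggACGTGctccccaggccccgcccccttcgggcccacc
Gjc3: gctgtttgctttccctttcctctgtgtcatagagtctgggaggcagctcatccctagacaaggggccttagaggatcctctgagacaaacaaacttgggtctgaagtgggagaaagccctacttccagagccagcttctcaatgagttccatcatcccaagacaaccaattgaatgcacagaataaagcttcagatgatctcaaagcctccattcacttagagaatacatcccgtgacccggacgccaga
Apoe: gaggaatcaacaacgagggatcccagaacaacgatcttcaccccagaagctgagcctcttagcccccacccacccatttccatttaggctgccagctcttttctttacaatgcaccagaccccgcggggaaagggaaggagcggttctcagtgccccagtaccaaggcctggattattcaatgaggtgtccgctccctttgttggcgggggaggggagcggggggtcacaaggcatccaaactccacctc

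One of the HIF core motifs stood in 57.7% of 9841 promoters of tested genes and in 58.7% of 339 promoters of genes raised at least 2-fold by the edit, so that set as a whole was near the background. The share was 76.2% of 21 promoters for the hypoxia list and 35.7% of 14 promoters for the overshot genes. Lists of other functions had shares as high, such as 80% of 15 promoters for G2 and M phase, 80% of 10 for Notch and 75% of 16 for ribosome biogenesis. ACGTG alone was in 21.9% of promoters of tested genes, 27.4% of those raised by the edit, 47.6% of the hypoxia list, 46.7% of the G2 and M phase list and 7.14% of the overshot genes. GC content, which bears on how often such motifs occur, averaged 60.5% over promoters of tested genes, 63.9% in the hypoxia list and 60.6% among the overshot genes. The ETS motif CCGGAAG, searched on both strands, was in 14.1% of promoters of tested genes and 4.42% of those raised by the edit. A match in these windows is a description and not a binding site.

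Among genes changed at least 2-fold, the 4 that came back to the DMSO control level had been lowered by the edit; among called genes of any size, 79 raised and 176 lowered genes returned. Plxnb3, a receptor for semaphorins, was 56.9, 48 and 55 CPM in DMSO control cells, 16.8, 18.2 and 19.4 CPM in DMSO Vhl cells and 54.4, 44.4 and 55.4 CPM in MEK-inhibited Vhl cells. The first and last of these groups overlapped, and the remaining difference was log2 −0.05 (95% interval −0.24 to 0.13). Aldh1a1, an enzyme that makes retinoic acid, was 23.3, 24.3 and 22.9 CPM, 7.33, 9.06 and 6.56 CPM and 27.4, 26.9 and 26.2 CPM in the same order. Its 3 drug-treated Vhl libraries lay just above all controls (log2 0.19 ± 0.08, adjusted p = 0.0615, edgeR). The adjusted p ranged from 0.0185 to 0.232 over its alternatives, passing without TMM scaling, with a 5 CPM filter, with the 2 groups fitted alone and without library B or C of the DMSO Vhl cells. The forkhead factor gene Foxb1 (9.89 ± 0.93 CPM against 9.26 ± 0.355 CPM, SD, n = 3) and the cilium gene Ccdc151 (3.96 ± 0.201 CPM against 3.74 ± 0.491 CPM, SD, n = 3) completed the 4.

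All 4 remained lower than in MEK-inhibited control cells, and the drug had raised all 4 in control cells too. Plxnb3 was 167, 169.6 and 168 CPM there (log2 −1.71 ± 0.08, adjusted p = 7.63e-09, edgeR, Vhl against control under the drug) and Aldh1a1 95.9, 99.7 and 105 CPM (log2 −1.90 ± 0.08, adjusted p = 2.11e-09, edgeR). The drug effect on Plxnb3 in Vhl cells minus that in control cells was log2 −0.16 (95% interval −0.43 to 0.11). At equal drug exposure Vhl cells held less Plxnb3 and Aldh1a1 than control cells, with no overlap between the libraries.

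Overshot genes included several that are known from oligodendrocytes and astrocytes. Gjc3, a connexin of myelinating glia, was 47.1, 44.9 and 42.8 CPM in DMSO control cells, 16.6, 20.2 and 16.1 CPM in DMSO Vhl cells and 116, 106 and 105 CPM in MEK-inhibited Vhl cells (log2 1.28 ± 0.07, adjusted p = 2.02e-09, edgeR). Apoe, the lipid carrier secreted by glia, was 94.2, 97.5 and 111 CPM, 43, 42.1 and 33.7 CPM and 239, 292 and 289 CPM (log2 1.44 ± 0.09, adjusted p = 1.52e-08, edgeR). In both genes no library of 1 group overlapped another, and the order was DMSO Vhl, DMSO control, MEK-inhibited Vhl and, highest, MEK-inhibited control cells, at 199 CPM and 580.1 CPM. The cytochrome P450 gene Cyp3a13 went from 0.444, 0.468 and 0.428 CPM in DMSO control cells through 0.159, 0 and 0 CPM in DMSO Vhl cells to 10.4, 8.24 and 9.75 CPM (log2 4.38 ± 0.36, adjusted p = 2.09e-07, edgeR). Smaller overshoots were those of the kinase gene Stk32a, from 10.4 ± 1.85 CPM to 20.9 ± 1.55 CPM (SD, n = 3), and of the polarity gene Crb2, from 1.62 ± 0.952 CPM to 6.12 ± 1.16 CPM (SD, n = 3). Afap1l2 went from 10.8 ± 2.67 CPM to 16.4 ± 2.49 CPM (SD, n = 3). Its groups overlapped, and its call was lost without library A or C of either group compared.

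Of the 18 overshot genes, 17 also rose with the drug in control cells (29.1% of all genes tested did) and 12 were lower in MEK-inhibited Vhl than in MEK-inhibited control cells (14% of all genes tested were). The drug effect was called larger in Vhl than in control cells for 7 of the 18, where 7.79% of all genes tested were (12.8% differed in either direction). The class picks genes low in DMSO Vhl cells and high in MEK-inhibited Vhl cells. A larger drug effect in Vhl cells is thus partly built into it, and the 7 are no independent evidence. St6galnac5, the 1 overshot gene that the edit had raised, was 4.57, 4.35 and 5.57 CPM in DMSO control, 10.1, 10.4 and 10.6 CPM in DMSO Vhl and 0.483, 1.57 and 1.09 CPM in MEK-inhibited Vhl cells (log2 −2.19 ± 0.33, adjusted p = 6.43e-05, edgeR).

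Sox10 was partly returned. It was 47.8, 55.3 and 50.5 CPM in DMSO control cells, 20.2, 17.4 and 15.5 CPM in DMSO Vhl cells and 31, 34.7 and 27.2 CPM in MEK-inhibited Vhl cells. The drug raised it in Vhl cells (log2 0.81 ± 0.11, adjusted p = 2.87e-05, edgeR), yet all 3 libraries stayed under the DMSO control cells (log2 −0.72 ± 0.10, adjusted p = 2.53e-05, edgeR). Control cells given the drug rose to 99.9, 96.9 and 95 CPM, and the drug effects in both cell lines differed by log2 −0.12 (95% interval −0.42 to 0.19). Luzp2, another gene of OPCs, was 6.43 ± 0.418 CPM in DMSO control and 4.99 ± 0.133 CPM in MEK-inhibited Vhl cells (SD, n = 3) after 1.14 ± 0.19 CPM in DMSO Vhl cells. Its remaining fall (log2 −0.36 ± 0.13, adjusted p = 0.0227, edgeR) did not pass under 6 alternatives, with adjusted p from 0.0507 with DESeq2 to 0.139 with no filter. These included leaving out library C of the DMSO control cells (0.0693) or library B of the MEK-inhibited Vhl cells (0.0611). Erbb3, a neuregulin receptor gene, also partly returned, to 4, 3.66 and 3.86 CPM against 6.54, 9.16 and 11.3 CPM in DMSO control cells (log2 −1.23 ± 0.20, adjusted p = 0.000156, edgeR).

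Among 13 tested lineage factors, 7 rose and 2 fell against DMSO control cells, and the 2 were Sox10 and the Wnt effector gene Tcf7l2 (log2 −0.97). Sox9, a SoxE factor of glial precursors, was 231, 233 and 232 CPM and 688, 650.1 and 678 CPM (log2 1.53 ± 0.03, adjusted p = 4.89e-13, edgeR). The edit alone gave log2 0.91 and the drug in Vhl cells log2 0.63. Nkx6-2, a homeodomain factor of oligodendrocytes, rose from 3.62, 2.34 and 3 CPM to 41.4, 44.3 and 38.4 CPM (log2 3.79 ± 0.18, adjusted p = 8.42e-10, edgeR). The zinc-finger factor Myt1 was left changed at 92.1, 105 and 126 CPM against 25.4, 27.2 and 14 CPM (log2 2.27 ± 0.22, adjusted p = 1.03e-06, edgeR). Olig2, the lineage-defining factor, was 1294, 1307 and 1375 CPM in DMSO control and 1327, 1274 and 1326 CPM in MEK-inhibited Vhl cells, with overlap (log2 −0.02, 95% interval −0.08 to 0.04). It had risen slightly with the edit (log2 0.17 ± 0.03, adjusted p = 0.000474, edgeR) and so counted as returned among genes of any size.

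Of 20 OPC genes 13 rose and 2 fell, with a median of log2 0.50. Gpr17, a receptor of committed precursors, was 55.5, 57.4 and 55 CPM in DMSO control cells and 542, 517 and 519 CPM in MEK-inhibited Vhl cells (log2 3.23 ± 0.04, adjusted p = 1.15e-14, edgeR). This was near the 514, 507 and 504 CPM of MEK-inhibited control cells (log2 0.05 ± 0.04, adjusted p = 0.346, edgeR), while DMSO Vhl cells had 59.5 CPM. Pdgfra, the receptor for the growth factor in the medium, was 30.7, 30.6 and 43.8 CPM and 134, 130.0 and 162 CPM (log2 2.02 ± 0.12, adjusted p = 1.06e-08, edgeR). The matrix genes Tnr, which encodes tenascin-R, and Vcan, which encodes versican, rose by log2 2.90 ± 0.08 and log2 1.36 ± 0.03, with adjusted p = 6.15e-12 and 1.64e-12, edgeR.

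Of 17 oligodendrocyte maturation genes 10 rose and 3 fell, with a median of log2 1.21, where the edit alone had a median of −0.37. Cnp, an early myelin enzyme gene, was 132, 131 and 127 CPM and 373, 369.7 and 344 CPM (log2 1.48 ± 0.04, adjusted p = 9.29e-12, edgeR). The groups did not overlap. Myrf, the factor that drives myelin genes, was 0.635, 1.94 and 1.14 CPM and 0.965, 1.44 and 2.48 CPM. The myelin gene Mbp was 5.97, 5.88 and 3.93 CPM and 4.41, 3.47 and 5.53 CPM. Neither passed (log2 0.39 and log2 −0.24, adjusted p = 0.579 and 0.607, edgeR). Tmem98, known as an inhibitor of Myrf processing, fell from 76.7, 72.4 and 74.9 CPM to 31.5, 25.1 and 27.3 CPM (log2 −1.42 ± 0.08, adjusted p = 4.02e-09, edgeR). Against MEK-inhibited control cells, 7 of the 17 were lower and 2 higher, where 14% and 16% of all genes tested were.

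Most ERK output genes were below the DMSO control level. Of 21 tested ERK feedback and output genes, 13 fell and 7 rose. Dusp6 was 423, 405 and 417 CPM in DMSO control cells and 33.2, 30.4 and 34.7 CPM in MEK-inhibited Vhl cells (log2 −3.66 ± 0.05, adjusted p = 1.96e-14, edgeR). MEK-inhibited control cells were lower still at 20.9, 20.5 and 21.2 CPM (log2 0.65 ± 0.06, adjusted p = 2.82e-06, edgeR, Vhl against control under the drug). Spry4 fell from 158, 164 and 164 CPM to 20.4, 21.1 and 24.4 CPM (log2 −2.88 ± 0.08, adjusted p = 5.81e-12, edgeR). The ETS factor gene Etv4 fell from 219, 221 and 236 CPM to 23.6, 24.2 and 26.4 CPM (log2 −3.19 ± 0.07, adjusted p = 1.09e-12, edgeR). The Sprouty gene Spry1 reached log2 −2.47 and Myc log2 −0.60, with adjusted p = 3.55e-14 and 6.44e-09 in edgeR's test. Against MEK-inhibited control cells 14 of the 21 were higher and 1 lower, where 16% and 14% of all genes tested were.

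The cyclin gene Ccnd1, an ERK target that opens the cell cycle, had been raised by the edit to 893, 898 and 864 CPM and fell with the drug to 235, 243 and 233 CPM, against 677, 702 and 699 CPM in DMSO control cells (log2 −1.55 ± 0.03, adjusted p = 3.37e-13, edgeR). The 7 risen members, Maff, Il17rd, Ier3, Fos, Etv1, Dusp5 and Phlda1, had changes of log2 0.53 to 5.31. Ier3, an immediate early gene, is one that the edit had raised and the drug partly returned, and it stood at 4.34, 2.62 and 2.84 CPM against 1.4, 1.14 and 1.64 CPM (log2 1.23 ± 0.32, adjusted p = 0.00449, edgeR). Klf2, a zinc-finger transcription factor gene, was 3.74, 4.28 and 2.36 CPM in DMSO control cells, 1.59, 2.52 and 2.34 CPM in DMSO Vhl cells, 41.4, 44.4 and 43.8 CPM in MEK-inhibited control cells and 89.8, 81.1 and 90.4 CPM in MEK-inhibited Vhl cells. No group of Klf2 values overlapped another except the 2 in DMSO, and its rise was log2 4.64 ± 0.15, adjusted p = 2.38e-11, edgeR.

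Cell cycle genes fell almost without exception: 23 of 24 for S phase, with a median of log2 −2.80, and 19 of 19 for G2 and mitosis, with a median of −4.06. The edit alone had medians of log2 −0.38 and −0.55, and 10 and 16 falls. The replication helicase gene Mcm5 was 377, 379 and 354 CPM in DMSO control cells and 28.9, 30.5 and 33 CPM in MEK-inhibited Vhl cells (log2 −3.59 ± 0.07, adjusted p = 2.77e-13, edgeR). Mki67, the proliferation marker, was 1051, 1061 and 916 CPM and 59.6, 51.4 and 57.7 CPM (log2 −4.17 ± 0.08, adjusted p = 4.05e-13, edgeR). MEK-inhibited control cells held more, 137, 132 and 117 CPM (log2 −1.19 ± 0.08, adjusted p = 2.08e-07, edgeR, Vhl against control under the drug). Of the G2 and mitosis genes 17 of 19 were lower than in MEK-inhibited control cells, and none was higher (14% and 16% of all genes tested were).

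Regulators of the G1 phase moved both ways, with 8 of 13 higher and 4 lower. Cdkn2b, an inhibitor of the D-cyclin kinases, was 4.06, 3.34 and 5.07 CPM and 24.2, 26.2 and 25.6 CPM (log2 2.61 ± 0.15, adjusted p = 6.41e-09, edgeR). The pocket protein gene Rb1 was 89.3, 86.4 and 79.7 CPM and 200.1, 190.3 and 192 CPM (log2 1.19 ± 0.04, adjusted p = 4.59e-11, edgeR). Cdkn1a, which encodes the p53-induced inhibitor p21, was partly returned, at 163, 165 and 166 CPM in DMSO control, 302, 299 and 289 CPM in DMSO Vhl and 229, 219 and 215 CPM in MEK-inhibited Vhl cells (log2 0.42 ± 0.05, adjusted p = 3.94e-06, edgeR). Of 16 tested p53 response genes, 7 rose and 7 fell, where 31.7% and 30.9% of all genes tested did. Of the 10 that the edit had raised, 5 were called below DMSO control cells (Ccng1, Bax, Phlda3, Eda2r and Plk2). The polo-like kinase gene Plk2 was 142, 150.0 and 149 CPM, 176, 185 and 182 CPM and 72.3, 70.7 and 61 CPM in that order of groups (log2 −1.11 ± 0.06, adjusted p = 4.26e-09, edgeR). The antiproliferative gene Btg2 rose to 322, 318 and 307 CPM from 70.6, 62.3 and 77.6 CPM (log2 2.17 ± 0.08, adjusted p = 1.04e-10, edgeR).

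Cholesterol genes were mostly raised by the drug in Vhl cells and mostly lowered by it in control cells. The list of synthesis genes and their regulators had 23 tested members. Against DMSO control cells, the edit alone lowered 12 and raised none, and the drug in control cells lowered 19 and raised none (31.7% of all genes tested fell with it), whereas in MEK-inhibited Vhl cells 8 were higher and 4 lower, with a median of log2 0.11. Within Vhl cells the drug raised 14 and lowered 2, where it raised 25.9% and lowered 25.6% of all genes tested. The drug effect was larger in Vhl than in control cells for 20 of 23, where 7.79% of all genes tested were, and 21 of 23 were higher than in MEK-inhibited control cells, where 16% were.

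Hmgcs1, the enzyme that supplies the pathway before its rate-limiting step, was 1726, 1828 and 1661 CPM in DMSO control cells, 1537, 1513 and 1422 CPM in DMSO Vhl cells, 1353, 1473 and 1569 CPM in MEK-inhibited control cells and 2583, 2813 and 2594 CPM in MEK-inhibited Vhl cells. The last group was above all others (log2 0.62 ± 0.06, adjusted p = 5.63e-07, edgeR), and the difference of drug effects was log2 1.08 (adjusted p = 4.09e-06, edgeR's interaction test). Of the 12 members lowered by the edit, 3 returned, among them Idi1 and Cyp51, 5 overshot (Hmgcs1, Mvk, Mvd, Fdft1 and Lss), 1 was left changed (Dhcr7), 2 moved further, among them Srebf2, and 1 could not be assigned (Nsdhl). The isomerase gene Idi1 was 353, 343 and 325 CPM in DMSO control and 349, 367 and 335 CPM in MEK-inhibited Vhl cells (log2 0.04, 95% interval −0.08 to 0.17), but 140.3, 159 and 166 CPM in MEK-inhibited control cells. Srebf2, the transcription factor of the pathway, was at 690.3, 716 and 729 CPM against 894, 929 and 899 CPM (log2 −0.35 ± 0.03, adjusted p = 1.16e-06, edgeR).

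Mitochondrial genes that the edit had lowered did not return: of 11 encoded in mitochondria, 3 were left changed and 8 moved further. All 13 mitochondrially encoded genes fell, with a median of log2 −0.93, against 11 falls and −0.67 with the edit alone and 2 rises and 2 falls with the drug in control cells. mt-Nd1, a subunit of respiratory complex I, went from 5547, 5308 and 4925 CPM to 2417, 2554 and 2515 CPM (log2 −1.08 ± 0.04, adjusted p = 2.69e-10, edgeR). mt-Cytb, of complex III, went from 7217, 7041 and 6364 CPM to 3568, 3656 and 3562 CPM (log2 −0.93 ± 0.04, adjusted p = 5.38e-10, edgeR). Of 24 tested nuclear genes of oxidative phosphorylation, 18 fell and none rose, with a median of log2 −0.48. Ndufa4, a subunit of complex IV, had the smallest p of them, 316, 311 and 310.4 CPM against 136, 134 and 134 CPM (log2 −1.22 ± 0.04, adjusted p = 1.34e-11, edgeR).

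Of 20 ribosome biogenesis genes 17 fell and none rose, with a median of log2 −1.25. The edit alone lowered 14, with a median of log2 −0.37, and the drug in control cells lowered 17, with a median of −1.41. The drug effect in Vhl cells minus that in control cells was called positive for 14 of the 20, where it was for 7.79% of all genes tested. The snoRNP protein gene Nop58 was 241, 236 and 226 CPM and 76, 69.7 and 72.2 CPM (log2 −1.69 ± 0.04, adjusted p = 3.81e-12, edgeR). Of 17 tested genes of the ATF4 and unfolded protein responses 10 fell and 3 rose. Mthfd2, an enzyme of mitochondrial one-carbon metabolism, was 105, 100.5 and 92.4 CPM in DMSO control cells, 60.8, 54.1 and 53.4 CPM in DMSO Vhl cells and 14.3, 14.8 and 14.2 CPM in MEK-inhibited Vhl cells (log2 −2.78 ± 0.07, adjusted p = 3.29e-12, edgeR). The chaperone gene Calr fell by 1.07 on the log2 scale (adjusted p = 7.19e-09, edgeR's test).

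Of 12 astrocyte genes 9 rose and 1 fell. Gfap, the intermediate filament of astrocytes, was 4.25, 3.54 and 4.57 CPM in DMSO control cells, 2.63, 2.59 and 3.39 CPM in DMSO Vhl cells, 139, 124 and 129 CPM in MEK-inhibited control cells and 109, 88.6 and 88.4 CPM in MEK-inhibited Vhl cells (log2 4.53 ± 0.12, adjusted p = 3.9e-12, edgeR). The water channel gene Aqp4 rose from 3.62, 2.87 and 3.43 CPM to 34.5, 29.6 and 28.2 CPM (log2 3.21 ± 0.14, adjusted p = 5.01e-10, edgeR). The summed level of 6 defining astrocyte markers was 680.0 to 743 CPM in DMSO control cells, 740.1 to 782 CPM in DMSO Vhl cells, 1639 to 1721 CPM in MEK-inhibited control cells and 1273 to 1304 CPM in MEK-inhibited Vhl cells. The part of these markers in the rises of Apoe, Gjc3 and S100b was not tested. Of the shorter lists, neural progenitor markers had 4 rises and 1 fall among 9 tested, mesenchymal markers 2 and 1 among 4, endothelial markers 2 and 0 among 3, pluripotency markers 1 and 1 among 4, and Schwann and neural crest markers 0 and 3 among 4. Over all genes tested 31.7% rose and 30.9% fell, and whether these short lists differ from those shares was not tested.

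Of 10 tested neuron genes 5 rose and 1, Gap43, fell (log2 −0.76). Dcx, a microtubule protein of young neurons, was 116, 113 and 109 CPM in DMSO control, 267, 262 and 278 CPM in DMSO Vhl and 417, 403 and 395 CPM in MEK-inhibited Vhl cells (log2 1.85 ± 0.04, adjusted p = 4.29e-13, edgeR). The RNA-binding protein gene Elavl3 rose by log2 2.35 ± 0.07, adjusted p = 7.18e-12, edgeR. Summed neuron markers were 177 to 188 CPM in DMSO control cells, 372 to 384 CPM in DMSO Vhl cells and 577 to 605 CPM in MEK-inhibited Vhl cells. Summed oligodendrocyte markers were 142 to 148, 163 to 180 and 371 to 402 CPM. MEK-inhibited control cells had 390 to 402 CPM of the neuron markers and 440 to 474 CPM of the oligodendrocyte markers. The Notch list rose in 11 of 13 cases. The drug in control cells raised 12 of the 13, where it raised 29.1% of all genes tested. The Notch effector gene Hes5 was 14.9, 13 and 15.6 CPM in DMSO control, 47.7, 45.9 and 49.9 CPM in DMSO Vhl and 175, 166 and 174 CPM in MEK-inhibited Vhl cells (log2 3.57 ± 0.07, adjusted p = 4.2e-13, edgeR). In that list 1 ligand gene, Jag1, fell (log2 −0.28). Id4, an inhibitor of differentiation factors, was 3.74, 3.94 and 3.57 CPM in DMSO control and 51.4, 50.0 and 46 CPM in MEK-inhibited Vhl cells (log2 3.71 ± 0.09, adjusted p = 1.83e-12, edgeR). Id2 rose by log2 1.90 ± 0.06 while Id3 changed by log2 −0.56 ± 0.04, with adjusted p = 1.18e-11 and 1.88e-08 in edgeR's test.

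Among 11 tested interferon and antigen presentation genes 7 rose and 1, Tmem173, fell. The class I gene H2-K1 was 3.68, 0.535 and 2.78 CPM in DMSO control and 55.4, 57 and 59.1 CPM in MEK-inhibited Vhl cells (log2 4.60 ± 0.41, adjusted p = 4.57e-07, edgeR), and DMSO Vhl cells held 38.5, 33.5 and 36.9 CPM. H2-D1, another class I gene, rose by log2 1.55 ± 0.10, adjusted p = 1.25e-08, edgeR. Of their 31-base words 22.8% (H2-K1) and 26.7% (H2-D1) occur in other genes, so reads could be divided between the copies.

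**Figure D4:**
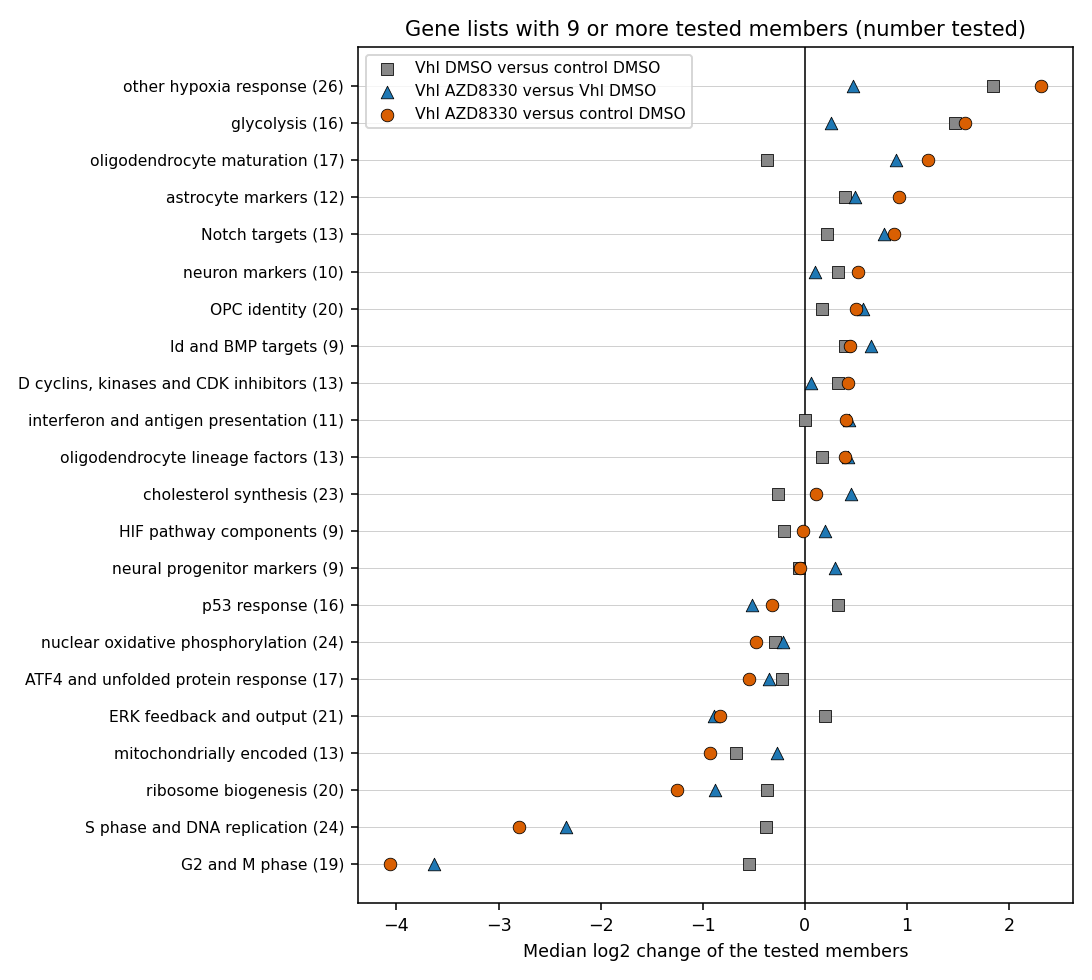
Median log2 change of the tested members of 22 gene lists with at least 9 tested genes (numbers in brackets), for the edit in DMSO (squares), the drug in Vhl cells (triangles) and MEK-inhibited Vhl against DMSO control cells (circles). Hypoxia and glycolysis lists lie at log2 2.31 and 1.57 in the last comparison, S phase and G2 and M phase lists at −2.80 and −4.06, and the median of all genes was 0.04.

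A second choice of Vhl-loss genes came from the untreated experiment, whose 6 libraries do not enter the main comparison. The authors' deposited mean column for the untreated Vhl group differed by more than 1% from the mean of its 3 libraries in 91.4% of rows with a value, and that for the control group in 0%. The reason was not tested. Genes were taken from the single libraries when untreated Vhl and control libraries did not overlap, differed at least 2-fold and reached 5 CPM. Of 264 tested genes higher in untreated Vhl cells, 168 (63.6%) rose and 47 fell in MEK-inhibited Vhl cells against DMSO control cells, with a median of log2 1.16, and 31.7% of all genes tested rose. Of 113 genes lower in untreated Vhl cells, 83 (73.5%) rose and 3 fell (2.65%), with a median of log2 1.21, where 30.9% of all genes fell. Of those 113, 30 had fallen with the edit in DMSO (26.5%; 18.5% of all genes did), and 88 rose with the drug in Vhl cells. Earlier results of these data set the A libraries of both untreated groups apart. Without them, 367 of 786 higher genes rose (46.7%) and 163 fell, and of 411 lower genes 193 rose (47.0%) and 98 fell (23.8%).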

How the data were processed

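RNA was extracted with TRIzol and sequenced by Novogene, per the labels' protocols. The authors deposited a table of estimated counts per gene, made with Salmon 0.14.1 on mm10 per the submitters' processing notes; its file name says TPM, but the columns sum to different totals and are not TPM. The values were rounded to whole numbers and genes averaging 1 CPM or more across the 12 libraries were tested with edgeR 4.0.16 (TMM, quasi-likelihood, 4 groups in 1 fit, Benjamini-Hochberg adjusted p under 0.05). The SE is the log2 change divided by the square root of F. The comparison with MEK-inhibited control cells and the difference of drug effects were added after seeing the data. Members and lists were chosen with earlier results of these data known.

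Named genes are the 8 largest rises and falls among called, non-overlapping genes of at least 5 CPM, up to 6 per class with the largest edit effect, up to 4 per list with the smallest p, and a written set. Outside that rule, St6galnac5, Ccdc151, Jmjd6, Gpi1, Igfbp3, Tcf7l2, Jag1, Gap43, and the members of the ERK, p53 and cholesterol lists given by class or direction were chosen after their values were seen. Rows whose names had turned into a date or digit (27, 0.284% to 0.372% of counts) were kept and not named. In simulated counts the test recovered 60% of 2-fold rises, 68% of 2-fold falls, 98% of 4-fold rises and 86% of 4-fold falls in the main comparison. It made 11 false calls. Only 50 genes per fold and direction were changed among 13457, whereas 62.7% were called in the data. These rates therefore do not carry over to the real comparison. Alternatives were DESeq2 1.42.0, limma 3.58.1 on log2 CPM, total-count scaling, other filters, a replicate block and leaving out each library. The authors' 2 deposited mean columns were not used. The untreated table was used only to pick genes, with no test. The main fit did not pair the libraries by replicate letter. Counting intervals cover counting error only. Values of a few list members are not reported here, though counts over the lists include them.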

Additional observations from a re-analysis of the deposited data

Results flagged for a closer look

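In 5 of 153 named genes AZD8330 moved Vhl cells and control cells in opposite directions, each direction and the difference being called in edgeR's test. Pgam1 had a drug effect of log2 0.10 in Vhl cells (adjusted p = 0.0155) and log2 −0.56 in control cells (adjusted p = 4.14e-09), and the difference was 0.66 on the log2 scale (adjusted p = 1.9e-06, edgeR). Gapdh had a drug effect of log2 0.28 in Vhl cells (adjusted p = 3.15e-06) and log2 −0.27 in control cells (adjusted p = 2.82e-06), and the difference was 0.55 on the log2 scale (adjusted p = 4.39e-06, edgeR). Slc2a1 had a drug effect of log2 0.13 in Vhl cells (adjusted p = 0.00465) and log2 −0.19 in control cells (adjusted p = 0.000858), and the difference was 0.32 on the log2 scale (adjusted p = 0.00138, edgeR). Egln3 had a drug effect of log2 0.50 in Vhl cells (adjusted p = 2.25e-06) and log2 −0.33 in control cells (adjusted p = 0.000345), and the difference was 0.83 on the log2 scale (adjusted p = 2.74e-05, edgeR). Hmgcs1 had a drug effect of log2 0.84 in Vhl cells (adjusted p = 4.8e-08) and log2 −0.25 in control cells (adjusted p = 0.00181), and the difference was 1.08 on the log2 scale (adjusted p = 4.09e-06, edgeR). All 5 rose with the drug in Vhl cells and fell with it in control cells. A called difference of drug effects in any form was found for 66 of the 153 named genes and for 12.8% of all genes tested. Named genes include those picked by size or p in comparisons that share these libraries, so the 66 are no independent evidence. Those with the same direction in both cell lines are not listed. Over all 13457 genes tested, 79 (0.587%) had opposite called drug effects with a called difference, 55 of them rising in Vhl cells and 24 falling.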

How the results depend on the processing

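The numbers in the edit classes changed with the settings. In the order returned, overshot, partly returned, left changed, moved further and not assigned, all called genes of any size gave 79, 72, 48, 621, 935 and 97 for rises and 176, 249, 49, 442, 1450 and 123 for falls. A 5 CPM filter gave 0 overshot, 94 left changed and 5 unassigned rises, and 1 returned, 9 overshot, 11 left changed, 4 moved further and 9 unassigned falls. With no filter, rises left changed numbered 345 and unassigned 76, and falls 57 and 85. On log2(CPM + 1) with limma, rises overshot numbered 0, left changed 130 and unassigned 13, and falls returned 2, overshot 5 and unassigned 19. Without TMM scaling 2 rises overshot and 2 falls returned. An interval within a fold of 2 gave 3 returned rises, 16 returned falls and 22 unassigned falls. The cause of these shifts was not tested.

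Leaving out 1 library at a time gave 3889 to 4278 risen and 3907 to 4169 fallen genes in the main comparison, 1575 to 2129 and 1990 to 2528 for the edit, and 2813 to 3475 and 3191 to 3598 for the drug in Vhl cells. In the class order above, rises ranged over 0 to 0, 1 to 1, 9 to 18, 206 to 272, 182 to 220 and 15 to 41, and falls over 2 to 6, 11 to 25, 4 to 8, 20 to 34, 13 to 20 and 27 to 43. Without the untreated A libraries, 367 genes of the higher set rose and 98 of the lower set fell. Same-letter libraries hardly deviated together (r −0.034 to 0.049, against −0.047 to 0.052 for other pairs). However, 9 of 12 libraries were closest to their own letter, so whether the letters pair the libraries is not settled. A replicate block gave 4193 risen and 4126 fallen genes.

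Among 153 named genes 3 changed sign, all uncalled: Plxnb3 (log2 0.00 without TMM scaling, and −0.13 to 0.04 leaving out 1 library), Olig2 (0.04 without TMM scaling, 0.02 with a 5 CPM filter, 0.01 without DMSO control library C, 0.00 without Vhl AZD8330 library B) and Myrf (−0.04 to 0.87 leaving out 1 library). Calls were lost in some setting for 5 named genes and gained for 3. With 3 libraries a group, small changes of low genes could not be detected reliably.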
